A study of Rattus norvegicus with 192 samples.

Results

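The comparison of whole egg with casein (CAS) in the adipose tissue of lean rats rested on 12 mRNA libraries, 6 whole egg and 6 CAS, of the 192 libraries of the series, and on all 8788 genes of the count table. Its members were all columns that the table names lean. The rats were male lean fa/+ controls of the Zucker diabetic fatty (ZDF) rat, a model of type 2 diabetes in which both copies of the leptin receptor gene are defective. They arrived at 6 weeks of age and ate for 8 weeks a diet with 20% protein, either from whole egg or from casein, the casein diet with corn oil to match the lipid of the egg. The adipose depot is not named in the labels. The whole egg rats were 2, 6, 10, 13, 17 and 21 and the CAS rats were 4, 8, 12, 15, 19 and 23. Table columns and sample labels give the same diet to each of the 12. For 6 of them (rats 2, 4, 6, 8, 10 and 12) the sample labels give the strain as ZDF where the columns say lean, so only 6 rats are lean in both sources. The ZDF adipose libraries read below for comparison have the reverse conflict. Of the rats their columns name ZDF, CAS rats 14 and 24 and whole egg rats 16, 18, 20 and 22 are labelled lean. ZDF below means the genotype of the columns.

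White adipocytes store triglyceride and release it as fatty acids. They take up circulating fat through lipoprotein lipase, carry it on fatty acid binding protein and secrete hormones such as adiponectin, leptin and resistin. Around them lie fibroblast-like stromal cells and their precursors, which make the collagen-rich matrix, together with macrophages and vessels. In male rats the large perigonadal depot lies against the epididymis, the epithelial duct in which sperm mature, and near the testis.

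The libraries were made with a kit that reads the 3' end of polyadenylated transcripts. Summed over genes, the whole egg libraries held 577769 to 3738306 counts (median 2190658) and the CAS libraries 1002582 to 2435881 (median 1306260). Rat 6 had the lowest total. Gene symbols were known for 466 of the 8788 genes, those that the study lists as differing in any of its tissues, so pathways are seen only in part. Levels are given below as CPM, counts scaled to a library total that TMM, a trimmed mean of the ratios between libraries, corrects. The values were not divided by transcript length, and levels are compared between rats and not between genes.

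The 2 whole egg libraries of rats 6 and 13 stood apart from the other 10. On the first principal component of log2 CPM, which held 31.5% of the variance, they lay at 112 and 135, and the other 10 libraries lay between -38.4 and -10.3. Their median correlation with the other libraries across genes was 0.56 for rat 6 and 0.48 for rat 13, against 0.73 to 0.84 for the rest. They were also unlike each other (r = 0.58 across genes, which are not independent replicates). In rat 13, 130 genes were more than 8-fold above every other library, in rat 6 there were 27, and in each of the other 10 libraries at most 7. Both rats lay more than 8-fold below the other 10 libraries for 64 genes and more than 8-fold above them for 6.

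**Figure D1:**
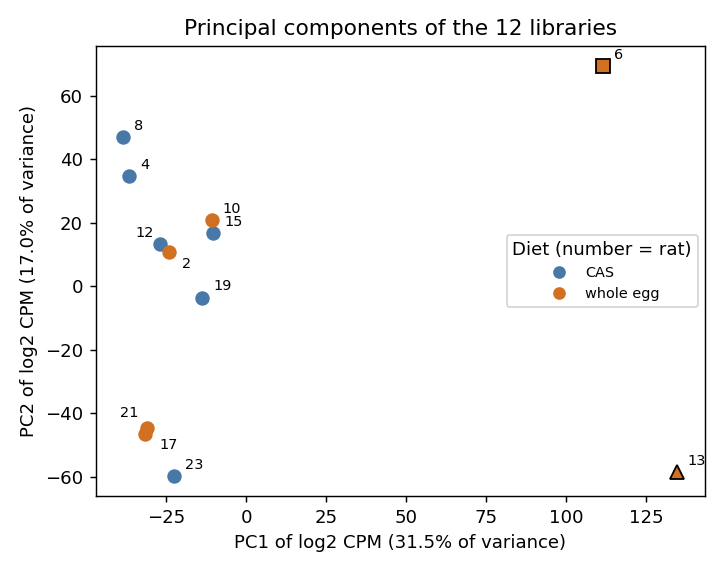
First and second principal component of log2 CPM for the 12 adipose libraries of lean rats, with the share of the variance on each axis, coloured by diet and numbered by rat (square, rat 6; triangle, rat 13). Rats 6 and 13 lie at 112 and 135 on the first axis and the other 10 libraries between -38.4 and -10.3, whole egg and CAS mixed.

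The defining transcripts of the tissue were low in these 2 libraries. Adipoq encodes adiponectin, the most abundant hormone of the adipocyte. Its level was 2467 to 7352 CPM in the 6 CAS rats (median 4449) and 3411 to 6418 CPM in whole egg rats 2, 10, 17 and 21, against 129.9 CPM in rat 6 and 42.3 CPM in rat 13. Lpl, which encodes lipoprotein lipase, had 5062 to 12787 CPM in CAS rats (median 10077) and 7094 to 10486 CPM in the same 4 whole egg rats, against 304 CPM in rat 6 and 48.5 CPM in rat 13. Ca3, which encodes the carbonic anhydrase of fat and muscle, had 300.3 CPM in rat 6 and 81.2 CPM in rat 13 where the lowest of the other 10 libraries had 4107 CPM. All 7 measured genes of the 23 on the adipocyte list (Adipoq, Ca3, Fabp4, Lpl, Mrap, Retn and Slc2a4) lay lower in both rats than in each of the other 10 libraries. Their summed level was 26923 to 87628 CPM in CAS rats and 28792 to 49440 CPM in the 4 whole egg rats, against 1017 CPM in rat 6 and 206 CPM in rat 13. None of the 7 was at 0 in any library. Low values were not confined to this list. Rat 6 lay below the other 10 libraries for 144 of all 466 genes with a symbol, and rat 13 for slightly fewer.

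Transcripts of other cells were high in the same 2 libraries. Cd52, a small surface glycoprotein of lymphocytes and of epididymal epithelium and sperm, had 0.68 to 9.38 CPM in CAS rats (median 2.37) and 0.48 to 11.6 CPM in whole egg rats 2, 10, 17 and 21. Rat 6 had 3021 CPM and rat 13 had 1312 CPM. Prom1 (prominin 1), a membrane protein of the apical face of epithelia, had 519 CPM in rat 6 and 1079.9 CPM in rat 13, against 2.96 to 20.2 CPM in the other 10. Cdh1, the epithelial cadherin, had 246 and 692 CPM in rats 6 and 13 and 1.24 to 39.6 CPM elsewhere. Of 5 measured genes on the epithelial list of 24, 4 (Cdh1, Krt8 and Prom1 among them) lay higher in both rats than in the other 10 libraries, and so did both measured genes of the 23 on the epididymal and male tract list (Cd52 and Slc45a3). Of all 466 genes with a symbol, rat 6 lay above the other 10 for 77 and rat 13 for 96. The summed level of the 5 epithelial genes was at most 140.96 CPM in the other 10 libraries, 1035 CPM in rat 6 and 1976 CPM in rat 13.

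Tnp1, a transcript of maturing sperm, was high in rat 13. It encodes the transition protein that replaces histones in the spermatid before protamines do. The level of Tnp1 was 24437 CPM in rat 13 and 12.2 CPM in rat 6. It was 1.28 to 69.9 CPM in CAS rats (median 4.51) and 0.53 to 103 CPM in whole egg rats 2, 10, 17 and 21. In rat 6 an identifier with no symbol in the sources used here, ENSRNOG00000013776, took 16.9% of all counts, 97888 counts against at most 117 in any of the 10 other libraries. In rat 13, ENSRNOG00000002532 had 61772 counts against at most 149 in the same 10. Both were picked after their values were seen. Leukocyte markers did not follow Cd52. Of 5 measured genes on that list of 26, 4 (Lyz2 and RT1-Ba among them) were lower in both rats than in the other 10 libraries, and the summed level of the 5 was 185 CPM in rat 6 and 144 CPM in rat 13 against 889 to 5221 CPM elsewhere. Among all 466 genes with a symbol, rat 6 lay below the other 10 for 144 and rat 13 for slightly fewer. What the libraries of rats 6 and 13 were made from was not tested.

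**Figure D2:**
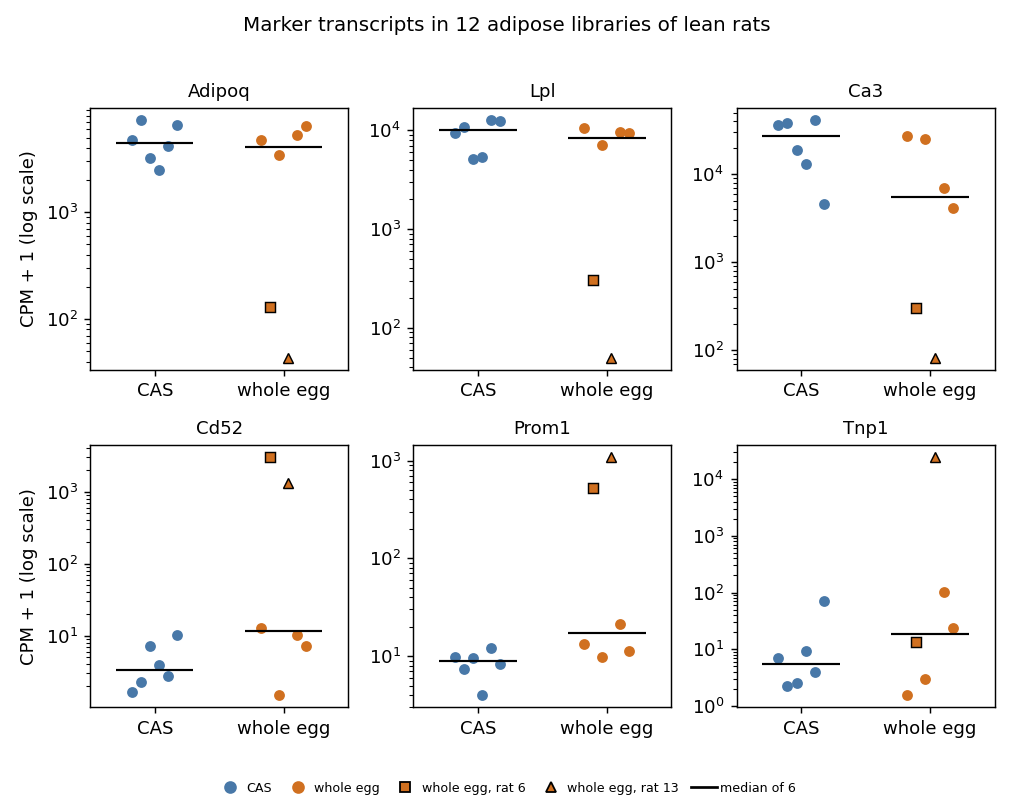
CPM plus 1 on a log scale for 3 adipocyte genes (Adipoq, Lpl, Ca3) and for Cd52, Prom1 and Tnp1 in the 6 CAS and 6 whole egg libraries, with the median of each diet as a line. Rats 6 and 13 lie below all others for the upper genes, at 129.9 and 42.3 CPM for Adipoq, and above all others for Cd52 and Prom1, and rat 13 is far above the rest for Tnp1 at 24437 CPM.

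The promoters of Cd52 and Tnp1 are shown because Cd52, a male tract gene, set rats 6 and 13 apart from the other libraries, and Tnp1, a testis gene, set rat 13 apart. The sequences are RefSeq windows on the rat build GRCr8, from 250 bases before the start of the gene to 50 after it, 5' to 3'. That build is not the one the counts were made on. Capitals mark matches on either strand to the cyclic AMP response element (CRE, TGACGTCA) and to the E box (CANNTG).
Cd52 (chr5:151605047-151605346, minus strand): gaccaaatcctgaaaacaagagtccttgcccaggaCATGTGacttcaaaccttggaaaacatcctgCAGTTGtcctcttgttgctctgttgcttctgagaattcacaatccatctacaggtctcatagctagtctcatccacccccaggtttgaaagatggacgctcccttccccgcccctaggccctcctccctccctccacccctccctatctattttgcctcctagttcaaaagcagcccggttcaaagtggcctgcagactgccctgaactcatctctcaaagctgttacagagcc
Tnp1 (chr9:82044229-82044528, minus strand): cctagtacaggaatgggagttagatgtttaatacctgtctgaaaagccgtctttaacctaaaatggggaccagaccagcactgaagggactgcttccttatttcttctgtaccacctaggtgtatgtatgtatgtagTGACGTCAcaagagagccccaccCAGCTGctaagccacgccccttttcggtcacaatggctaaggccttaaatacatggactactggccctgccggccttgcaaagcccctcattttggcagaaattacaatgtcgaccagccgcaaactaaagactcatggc
The Tnp1 window held 1 CRE, beginning 113 bases before the start, and 1 E box. The Cd52 window held 2 E boxes and no CRE. Among all 33469 promoter windows of the table, 1.83% held the CRE letters and 72.1% an E box. A match is a run of letters and not a measured binding site.

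Prom1, Tnp1 and Cd52 were also read in the kidney or prefrontal cortex libraries of rats 6 and 13, and their liver libraries were not analysed here. In kidney libraries, Prom1 was 17.4 CPM in rat 6 and 35.4 CPM in rat 13, where the other 10 lean rats had 0 to 64.5 CPM, and Tnp1 was 22.0 and 14.0 CPM where they had 1.12 to 93.6 CPM. In prefrontal cortex libraries, Prom1 was 19.5 CPM in rat 6 and 8.81 CPM in rat 13 (10.0 to 27.4 CPM in the others). Cd52 there was 0.68 and 0.49 CPM (0.23 to 1.79 CPM in the others). Among the 12 ZDF adipose libraries, Cd52 was 670 CPM in whole egg rat 22 and 120 CPM in CAS rat 14, and at most 18.1 CPM in the other 10. Tnp1 was 1487 CPM in CAS rat 14 and at most 25.3 CPM in the other 11.

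Fitted over all 12 libraries in edgeR (quasi-likelihood test, Benjamini-Hochberg adjustment over 8788 genes), no gene passed a false discovery rate (FDR) of 5% (0 of 8788, 0%), and the smallest adjusted p was 0.627. The unadjusted p was under 0.05 for 669 genes (7.61%), of which 438 lay higher with whole egg (4.98%) and 231 lower (2.63%). DESeq2 called 14 of the 8424 genes it gave an adjusted p (0.166%), 13 higher and 1 lower, and had 750 genes under an unadjusted 0.05 (8.53%), and limma-voom with sample weights called 0 and had 326 genes under an unadjusted 0.05. Without rats 6 and 13, edgeR called 0 of 8788 (0%) with 305 genes at an unadjusted p under 0.05 (3.47%), of which 101 were higher (1.15%) and 204 lower (2.32%), so that most of them no longer lay on the higher side. DESeq2 also called 0 without these 2 rats, with 435 genes under an unadjusted 0.05. The 2 sets shared 151 genes in the same direction, 40 higher and 111 lower. Each library came from a separate rat. The paper reports that rats were dual-caged, and the labels do not give the cage of each rat, so cage was not modelled.

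The study lists 13 genes for lean adipose tissue, chosen on these samples, so their size and direction are not independent evidence. In the 12-library fit 12 of them had a positive log2 fold change (2.61 to 7.52) and 1, Tcf21, a negative one. DESeq2 called 11 of the 13, and the adjusted p of the other 2, Pgp and Rangap1, was 0.061 for each. For all 12 positive genes, rats 6 and 13 were the 2 highest of the 12 libraries. Over the 13 the median absolute log2 fold change was 3.25 with all rats and 1.05 without rats 6 and 13. The median over all genes, 0.05 and -0.06, keeps the sign, so it is not a like measure. An absolute median over all genes was not computed. No gene of the 13 passed in edgeR in either fit. Without the 2 rats 5 of them (Cenpn, Ppp4r1, Slc41a2 and Tcf21 included) had an unadjusted p under 0.05, beside 3.47% of all genes.

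Among the membrane and secretory proteins of the list, Cd52 differed by 7.52 (SE 1.74) on the log2 scale with all 12 libraries and by 0.84 (SE 0.82) without rats 6 and 13. Prom1 had 5.17 (SE 1.18) and 0.76 (SE 0.54). Reep6, an endoplasmic reticulum protein known from rod photoreceptors, had 183 CPM in rat 6 and 1507 CPM in rat 13. The 6 CAS rats had 3.85 to 18.9 CPM for Reep6 and the 4 remaining whole egg rats 14.9 to 44.4 CPM. The fold change on the log2 scale was 4.65 (SE 1.10) and, without the 2 rats, 1.05 (SE 0.52). Slc41a2, a magnesium transporter, had 132 CPM in rat 6, 69.3 CPM in rat 13 and 18.8 CPM in rat 10. The other 3 whole egg rats had 1.52 to 6.62 CPM and the CAS rats 0 to 3.41 CPM, which is 0 to 8 counts. For Slc41a2 the log2 fold change was 4.37 (SE 1.03) and 2.16 (SE 0.84) in the respective fits.

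The regulators and cytoskeletal genes of the list were also highest in rats 6 and 13. Enah, which lengthens actin filaments, and Epb41l4b, a band 4.1-type membrane linker, had 3.18 (SE 0.89) and 3.44 (SE 0.93) with all rats and 0.58 (SE 0.60) and 1.28 (SE 0.77) without the 2. Cenpn, a centromere protein, had 0 to 5.93 CPM in CAS rats and 3.38 to 53.8 CPM in whole egg rats, with a log2 fold change of 2.20 (SE 0.83) without rats 6 and 13. Nexmif, a nuclear protein of neurite outgrowth, had 87.2 and 45.9 CPM in rats 6 and 13 and at most 5.31 CPM in the other 10. Pgp (phosphoglycolate phosphatase), Ppp4r1 (a regulatory subunit of protein phosphatase 4) and Rangap1 (the activator of the Ran GTPase) had log2 fold changes of 2.65, 2.61 and 2.91 with all rats. Leaving out rats 6 and 13 they were 0.65, 1.13 and 0.50.

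**Figure D3:**
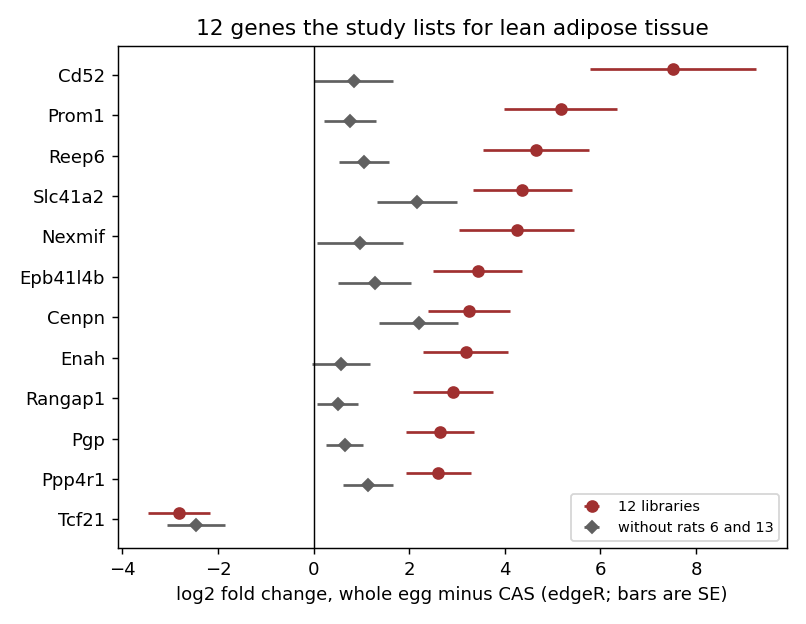
The log2 fold change (whole egg minus CAS, edgeR, bars are the standard error) of 12 of the 13 genes the study lists for lean adipose tissue, with all 12 libraries (circles) and without rats 6 and 13 (diamonds). Cd52 moves from 7.52 to 0.84 and Prom1 from 5.17 to 0.76, and Tcf21 lies at -2.81 and -2.46.

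Tcf21 was the exception. It encodes a basic helix-loop-helix transcription factor of mesenchymal cells that in white fat marks stromal precursors. The CAS rats 4, 8, 12, 15, 19 and 23 had 35.8, 21.8, 27.6, 25.9, 9.42 and 8.10 CPM, and the whole egg rats 2, 6, 10, 13, 17 and 21 had 1.59, 2.03, 5.31, 0.33, 4.55 and 3.73 CPM. Every whole egg rat thus lay below every CAS rat, on raw counts of 1 to 18 in whole egg and 16 to 53 in CAS. The log2 fold change was -2.81 (SE 0.65) with all rats and -2.46 (SE 0.62) without rats 6 and 13. The edgeR adjusted p was 0.627 and 0.994, and that of DESeq2 was 0.0094 and 0.055, so the call depended on the tool and on these 2 libraries. Diets that do not overlap were seen in 15 of 8788 genes (0.171%), 8 of them higher with whole egg (0.091%) and 7 lower (0.0797%). Without rats 6 and 13 there were 50 such genes (0.569%), 28 higher (0.319%) and 22 lower (0.25%). In ZDF adipose tissue Tcf21 had 3.47 to 50.7 CPM in CAS rats (median 14.7) and 0 to 13.2 CPM in whole egg rats (median 3.51). The 0 was that of rat 11, whose library held only 30819 counts, too few to read a gene this low. In that tissue the diets overlapped and the log2 fold change of Tcf21 was -1.78 (SE 0.71, edgeR adjusted p = 0.714). In bulk tissue, fewer cells that express a gene and less of its RNA per cell cannot be told apart. The Tcf21 promoter is shown because this is the gene of the 13 with the largest absolute fold change without the 2 rats.
Tcf21 (RefSeq, GRCr8, chr1:24520249-24520548, plus strand): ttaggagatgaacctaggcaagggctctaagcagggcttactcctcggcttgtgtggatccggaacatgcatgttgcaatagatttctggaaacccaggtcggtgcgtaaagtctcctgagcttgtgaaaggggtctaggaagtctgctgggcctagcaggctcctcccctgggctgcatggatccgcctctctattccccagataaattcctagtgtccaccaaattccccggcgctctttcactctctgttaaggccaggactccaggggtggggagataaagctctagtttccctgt
It held neither the CRE nor the E box letters and so has no capitals, which says nothing of the factors that act there.

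Of the genes with a symbol, Tcf21, B4galt6 and Mgp were lower in every whole egg rat than in every CAS rat over all 12 libraries. Over all 8788 genes, with or without a symbol, 7 were separated in this way (0.0797%). How many chance alone would give was not computed. B4galt6, which makes lactosylceramide, had 6.82 to 39.7 CPM in CAS rats (median 17.8) and 4.06 to 6.76 CPM in whole egg rats (median 5.57). The log2 fold change of B4galt6 was -1.72 (SE 0.54) with all rats and -1.58 (SE 0.59) without rats 6 and 13, and neither passed (edgeR adjusted p = 0.633 and 0.994). In ZDF adipose tissue it had a log2 fold change of -1.74 (SE 0.49, edgeR adjusted p = 0.539). The study lists B4galt6 as lower in that tissue, on these same samples, and its symbol is known from that listing. The ZDF fold change of B4galt6 is therefore not independent evidence. Mgp, matrix Gla protein, an inhibitor of calcification secreted by stromal cells, had 529 to 1067 CPM in CAS rats (median 582) and 76.6 to 486 CPM in whole egg rats (median 335). Rat 13 gave the lowest of these and rat 6 the next, and without them the log2 fold change was -0.75 (SE 0.35, edgeR adjusted p = 0.994) in place of -1.05 (SE 0.44, adjusted p = 0.633).

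**Figure D4:**
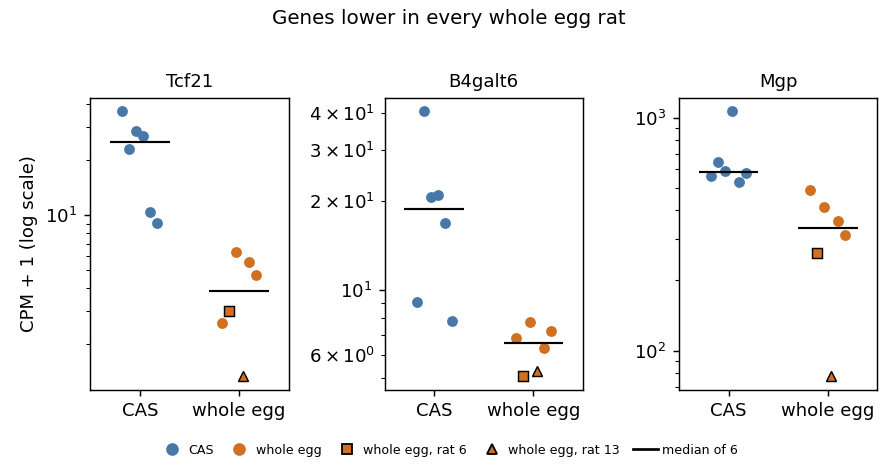
CPM plus 1 on a log scale for Tcf21, B4galt6 and Mgp in the 12 libraries, with the median of each diet as a line. All 6 whole egg rats lie below the 6 CAS rats for each, at 0.33 to 5.31 CPM for Tcf21 against 8.10 to 35.8 CPM. The same holds for 7 of all 8788 genes (0.0797%).

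Stroma and matrix genes are expressed by the fibroblast-like cells around the adipocytes. Of 7 measured of the 18 on the stroma and matrix list, 0 passed, 2 were lower at an unadjusted p under 0.05 with all rats (Mgp and Tcf21) and 3 without rats 6 and 13 (Col3a1 as well), beside 2.63% and 2.32% of all genes. The median log2 fold change of the 7 was -0.96 and -0.64. Col3a1, the type III collagen of the adipose matrix, had 1665 to 5594 CPM in CAS rats (median 4276) and 1643, 2260, 2645 and 2012 CPM in whole egg rats 2, 10, 17 and 21. Rat 6 had 430 CPM and rat 13 had 42.6 CPM. On the log2 scale Col3a1 differed by -1.43 (SE 0.71), and by -0.93 (SE 0.42) without the 2 rats, where CAS rat 23 alone of the CAS rats lay within the range of whole egg. Lox, which cross-links collagen, had 77.7 to 174 CPM in CAS rats and 51.1 to 91.7 CPM in the 4 whole egg rats. Fbn1 (fibrillin) had 613 to 2315 CPM in CAS rats and 597 to 3138 CPM in the 4 whole egg rats, a wide overlap.

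For the adipocyte genes no difference between diets was detected. The median log2 fold change of the 7 was -0.59 with all rats and -0.02 without rats 6 and 13, and 0 passed in either fit. Only 1 had an unadjusted p under 0.05, Slc2a4 without the 2 rats, where 3.47% of all genes did. Adipoq had -0.50 (SE 0.85) and 0.07 (SE 0.42), and Lpl -0.59 (SE 0.88) and -0.02 (SE 0.43). Slc2a4, the insulin-responsive glucose transporter, had 14.1 to 126 CPM in CAS rats and 61.4, 59.4, 169 and 197 CPM in whole egg rats 2, 10, 17 and 21. For Slc2a4 the fold change was, on the log2 scale, 1.31 (SE 0.56, edgeR adjusted p = 0.994) without rats 6 and 13 and 0.77 (SE 0.77) with them. Fabp4, the fatty acid carrier of the adipocyte, had 4201 to 30052 CPM in CAS rats, the highest in rat 8, and 2621 to 6061 CPM in the 4 whole egg rats.

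Fat synthesis genes make fatty acids from glucose carbon. Of 7 measured of 16 on the lipogenesis list, 0 passed and the median log2 fold change was 0.13, or 0.38 without rats 6 and 13. Fasn, the fatty acid synthase, had 114 to 693 CPM in CAS rats (median 219) and 76.9 to 254 CPM in whole egg rats (median 162), with a log2 fold change of -0.93 (SE 0.49, edgeR adjusted p = 0.672). Thrsp, a thyroid hormone-responsive regulator of lipogenesis, had 1248 to 6984 CPM in CAS rats and 3001 to 5708 CPM in the 4 whole egg rats, and 128 and 785 CPM in rats 6 and 13. Acacb, the acetyl-CoA carboxylase that restrains fatty acid oxidation, had 0 to 20.0 CPM in CAS rats and 15.7 to 57.5 CPM in the 4 whole egg rats. In the fit without rats 6 and 13 Acacb had a log2 fold change of 1.57 (SE 0.65, edgeR adjusted p = 0.994). Acly, which makes cytosolic acetyl-CoA, was highest in rat 13 at 510 CPM, and so was Cyp51 of cholesterol synthesis at 265 CPM, where the other 11 libraries had 9.46 to 35.9 CPM. Of 10 measured of 19 cholesterol genes, 0 passed and 1 (Cyp51) had an unadjusted p under 0.05 with all rats and 0 without the 2. Over all genes the shares were 7.61% and 3.47%. The 3 measured lipolysis and droplet genes of 14 (Angptl4, Fabp4 and Plin2) had a median log2 fold change of -1.04, and -0.55 without rats 6 and 13, and none had an unadjusted p under 0.05.

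Glutathione transferases, peroxidases and related enzymes clear electrophiles and peroxides, and 17 of 30 on that list were measured. None passed, and 3 were higher at an unadjusted p under 0.05 with all rats (Gstm1, Gstm7 and Prdx6) and 3 without rats 6 and 13 (Gstm1, Gstp1 and Gstz1), beside 4.98% and 1.15% of all genes. The median log2 fold change of the list was 0.12 and 0.24. Gstm1, a glutathione transferase of the mu class, had 25.6 to 79.7 CPM in CAS rats, 892 CPM in rat 13, 233 CPM in rat 10 and 46.8 to 72.4 CPM in the other 4 whole egg rats. Its fold change on the log2 scale of 2.29 (SE 0.70) became 1.14 (SE 0.47) without the 2 rats, with rat 10 the highest of those left. Gstz1, which isomerizes maleylacetoacetate in tyrosine breakdown, had 31.9 to 195 CPM in CAS rats and 154 to 286 CPM in the 4 whole egg rats. Mgst1, Gpx1 and Cat had log2 fold changes between -0.69 and -0.24 with all rats and between -0.17 and 0.27 without the 2.

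Among the lists of other cell types, 0 genes passed. At an unadjusted p under 0.05 with all rats, 3 of 5 epithelial genes, both male tract genes and Tnp1 lay higher, beside 4.98% of all genes. Without rats 6 and 13 the counts were 1 of 5, 0 and 0, beside 1.15%. Interferon genes mark antiviral and inflammatory signalling. Of 9 measured interferon genes of 16, 0 passed. Without rats 6 and 13 Irf1 was higher and Psmb9 lower at an unadjusted p under 0.05, beside 1.15% and 2.32% of all genes. Irf1, an interferon-induced transcription factor, had 40.2 to 64.0 CPM in CAS rats and 59.8, 62.3, 170 and 87.8 CPM in whole egg rats 2, 10, 17 and 21. Psmb9, an immunoproteasome subunit, had 33.6 to 97.4 CPM in CAS rats and 22.2 to 32.9 CPM in those 4 whole egg rats, and 44.6 and 50.5 CPM in rats 6 and 13. For the 5 leukocyte genes the median log2 fold change was -0.53 with all rats and -0.05 without the 2. The 4 clock genes measured of 14 had medians of -0.29 and -0.47 and none had an unadjusted p under 0.05, and neither did Egr1, the single immediate early gene measured of 13. No gene of the mesothelium, endothelium, smooth muscle, skeletal muscle or thermogenic lists had a symbol here.

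Without rats 6 and 13 the symbols with the smallest unadjusted p on the higher side included Ephx1, Tymp and Adhfe1, none past the test (edgeR adjusted p = 0.994 for each). Ephx1, the microsomal epoxide hydrolase, had 88.9 to 151 CPM in CAS rats and 109, 440, 233 and 273 CPM in whole egg rats 2, 10, 17 and 21, which gave a log2 fold change of 1.07 (SE 0.37). Tymp, thymidine phosphorylase, had 4.45 to 18.3 CPM in CAS rats and 103 CPM in rat 10, with 10.6 to 22.3 CPM in the other 3, and a log2 fold change of 1.72 (SE 0.60). Adhfe1, a mitochondrial transhydrogenase of adipocytes, had 5.13 to 64.7 CPM in CAS rats and 50.6 to 90.3 CPM in the 4 whole egg rats, which gave 1.43 (SE 0.54) on the log2 scale. On the lower side Apaf1, the scaffold of the apoptosome, had -1.67 (SE 0.75), Dok2, a docking protein of blood cells, -1.03 (SE 0.47), and Commd6, Copb1 and Zfp189 -1.41, -0.93 and -1.84. With all 12 rats the lower side also held Wfdc21, Enpp2 (autotaxin, the lysophosphatidic acid-forming enzyme that adipocytes secrete), S100a10, Ppfibp1 and Palm2, with log2 fold changes of -2.22, -1.57, -1.43, -1.06 and -1.83. For Wfdc21 and S100a10, rats 13 and 6 were the lowest libraries.

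LOC102556347 is annotated by the study as similar to the NADPH-dependent enzyme carbonyl reductase 1. In lean adipose tissue it had 50.4 to 410 CPM in CAS rats (median 150) and 692, 110, 653 and 1068 CPM in whole egg rats 2, 10, 17 and 21, with 22.3 and 12.5 CPM in rats 6 and 13. The log2 fold change was 1.14 (SE 0.85, edgeR adjusted p = 0.754) with all rats and 1.70 (SE 0.60, adjusted p = 0.994) without these 2. In ZDF adipose tissue it had 0 to 9.89 CPM in CAS rats (median 3.44) and 30.4 to 132 CPM in whole egg rats (median 76.2). Whole egg rat 11 entered with 5 counts, from a library of 30819. In that tissue the diets did not overlap and the log2 fold change of 4.39 (SE 0.59) passed in edgeR (adjusted p = 0.0023). The study lists LOC102556347 as higher in that tissue, on these same samples, so its ZDF values are not independent evidence. In the prefrontal cortex of the lean rats it had 0 to 3.68 CPM in CAS rats and 2.05 to 6.37 CPM in whole egg rats. The difference in the effect of diet between the genotypes in adipose tissue, 3.17 on the log2 scale, did not pass (edgeR adjusted p = 0.673).

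Whether the effect of diet differed between the 2 genotypes was tested over the 24 adipose libraries and the 7395 genes of both tables, with genotype taken from the columns. In edgeR 1 gene passed (0.0135%) and 487 had an unadjusted p under 0.05 (6.59%). For 107 of these the whole egg minus CAS log2 fold change, with its sign, was larger in ZDF rats (1.45%). For 380 it was larger in lean rats (5.14%). This split moved with the libraries used. Without rats 6 and 13, 197 genes had an unadjusted p under 0.05, 91 with the larger fold change in ZDF rats and 106 in lean rats. Without rat 13 alone there were 291 (104 and 187), and without ZDF whole egg rat 11 there were 537 (169 and 368). With the strain of the sample labels there were 304, of which 159 had the larger fold change in ZDF rats. The 1 gene that passed was Fasn. Its levels in ZDF rats were 61.8 to 126 CPM on CAS (median 82.3) and 121 to 1800 CPM on whole egg (median 807), and the lowest whole egg value was that of rat 11, the shallowest library with 30819 counts. The log2 fold change was 3.32 (SE 0.56, edgeR adjusted p = 0.030) in ZDF rats and -0.93 in lean rats, and the difference was 4.20 (SE 0.76, adjusted p = 0.041). DESeq2 called Fasn and no other gene (0.0137%). Without rats 6 and 13 the difference was 3.89 (edgeR adjusted p = 0.232), and with the strain of the sample labels in place of the columns it was 0.78 and no gene passed. Left out singly, 18 of the 24 libraries took the call away, with an adjusted p of up to 0.118.

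MicroRNAs from the same RNA isolates were counted for 49 mature microRNAs. Those with an unadjusted p under 0.05 are shown in part, as RefSeq gives them, with the seed (bases 2 to 8, which pair with the target) in capitals, because they fall into families by seed.
miR-125a-5p: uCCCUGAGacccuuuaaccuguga
miR-125b-5p: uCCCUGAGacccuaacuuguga
let-7g-5p: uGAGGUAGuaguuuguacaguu
let-7i-5p: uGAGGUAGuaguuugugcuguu
miR-204-5p: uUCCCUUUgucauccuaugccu
miR-21-5p: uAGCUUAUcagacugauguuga
miR-125a-5p and miR-125b-5p share the seed CCCUGAG and let-7g-5p and let-7i-5p the seed GAGGUAG, so the members of a pair address largely the same target sites, and reads of close family members may be hard to tell apart. None of the 49 passed in edgeR (0%, smallest adjusted p = 0.202), and 8 reached an unadjusted 0.05 (16.3%), 6 of them higher with whole egg (12.2%) and 2 lower (4.08%). DESeq2 also called 0, with 10 under an unadjusted 0.05 (20.4%), 4 higher and 6 lower. Without rats 6 and 13 edgeR called 0 and 1 was under 0.05 (2.04%), let-7g-5p. The median log2 fold change of the 49 was 0.06 with TMM factors and -0.08 with those of RLE or DESeq2, so small changes depend on the scaling. The total count was 360969 to 2100126 in whole egg rats and 176089 to 1632008 in CAS rats.

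miR-125a-5p, of a family known from stem and muscle cell differentiation, had 8703 to 24855 CPM in CAS rats (median 13309). In whole egg rats 2, 6, 10, 13, 17 and 21 it had 1937, 2500, 7760, 1796, 12014 and 9315 CPM. Its relative miR-125b-5p had 2248 to 15361 CPM in CAS rats (median 3585) and 305, 462, 2359, 654, 3813 and 2795 CPM in the whole egg rats in the same order. For both, rats 2, 6 and 13 were the 3 lowest of the 12 libraries, although rat 2 had an mRNA library like those of the others (Adipoq at 4731 CPM). The log2 fold changes were -1.32 (SE 0.49, edgeR adjusted p = 0.202) and -1.64 (SE 0.65, adjusted p = 0.202), and -0.93 and -1.22 without rats 6 and 13.

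let-7g-5p, of the family that holds back proliferation in differentiated cells, had 4748 to 20900 CPM in CAS rats (median 11142) and 13962 to 44035 CPM in whole egg rats (median 20240), the highest in rats 2 and 6. On the log2 scale let-7g-5p differed by 1.04 (SE 0.40, edgeR adjusted p = 0.202) and 0.98 without rats 6 and 13. let-7i-5p had 0.82 (SE 0.39). miR-204-5p, abundant in several epithelia, had 11172 CPM in rat 13, 1246 CPM in rat 6 and at most 1442 CPM in the other 10, and the log2 fold change went from 1.69 to 0.27 when the 2 rats were left out. miR-21-5p had 40560 CPM in rat 13 and 14435 CPM in rat 6, with 5050 to 12547 CPM in the other 10, and went from 1.08 to 0.42. miR-103-3p and miR-152-3p had 0.96 and 0.61 with all rats and 0.41 and 0.48 without them. miR-145-5p, of smooth muscle, had 482 to 1974 CPM in CAS rats and 560 to 1589 CPM in whole egg rats, and miR-125b-2-3p had 780 to 1113 and 339 to 912 CPM. No member of the miR-200 family was in the table analysed.

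**Figure D5:**
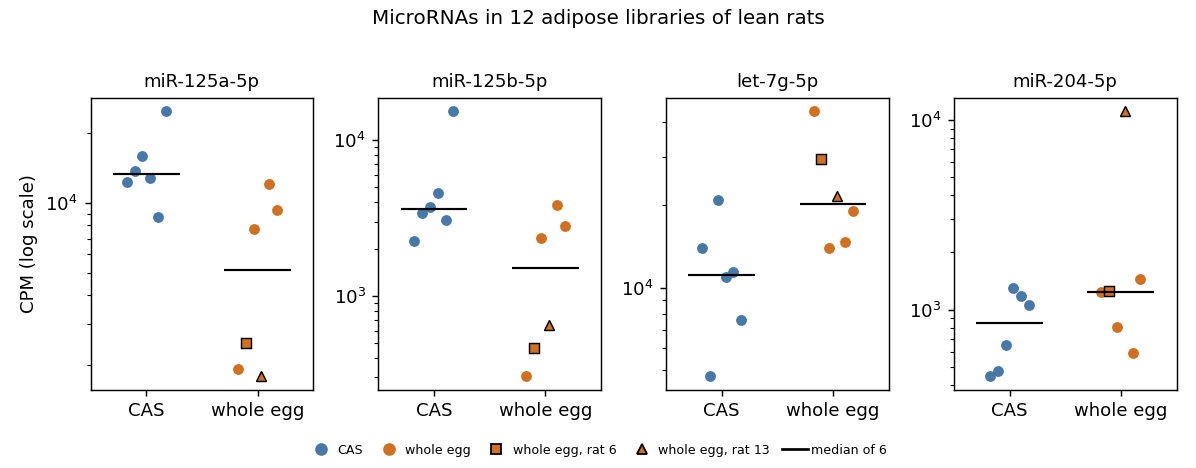
CPM on a log scale for miR-125a-5p, miR-125b-5p, let-7g-5p and miR-204-5p in the 12 small RNA libraries, with the median of each diet as a line. Rats 6 and 13 and 1 further whole egg rat, rat 2, are lowest for both miR-125 members, and rat 13 stands alone for miR-204-5p at 11172 CPM.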

How the data were processed

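Per the labels and the study's methods, large and small RNA came from the same isolates of frozen adipose tissue. The authors made QuantSeq 3' mRNA and small RNA libraries, trimmed adapters, and used STAR on the rat build Rnor_6.0 for mRNA and Bowtie on microRNA references for small RNA, with tool versions not given in the sources used here. What they deposited are unnormalized read counts by gene or microRNA, after a filter on rarely seen genes. Separate tables hold the fold changes and p-values of the study's own comparisons and were not used. Molecular identifiers are not mentioned, so counts can hold PCR copies.

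Diet came from the sample labels and genotype from the column names. Diets were compared by 2-sided quasi-likelihood tests with TMM factors (edgeR 4.0.16 under R 4.3.3), diet as the only term, no further filter, and Benjamini-Hochberg adjustment over all genes at an FDR of 5%. Log2 CPM used a prior count of 2. Symbols came from the study's gene table. Named genes were those the study lists for this tissue, the 10 symbols with the smallest p in each direction with and without rats 6 and 13, those DESeq2 calls, and up to 6 of the highest members of each of 18 lists. MicroRNAs were those at an unadjusted p under 0.05 and the miR-125, miR-143/145 and miR-200 families. Members, lists, the rule and the tests were chosen with earlier results of these data known. Alternatives were DESeq2 1.42.0 (own or TMM factors), limma-voom (limma 3.58.1) with sample weights, RLE factors, a minimum count of 10, robust dispersions, an FDR of 10%, the strain of the labels, and leaving out libraries. DESeq2 and limma-voom without rats 6 and 13 were added after seeing the data. A few genes are counted in the totals but not reported here. Tests were tried on simulated counts. Figures were drawn with matplotlib 3.10.9.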

Additional observations from a re-analysis of the deposited data

Results flagged for a closer look

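The difference in the response of Fasn between genotypes (4.20 on the log2 scale, ZDF minus lean, edgeR) passed the test of the difference itself. The other results given here have a library far from the remaining 5 of its diet group. Over 186 groups (83 genes and 10 microRNAs, each diet, on log2 of CPM plus 1) there were 15 such cases, and chance gives about 1 in 20 groups, so part of them may be chance. The number in brackets is the gap to the nearest library over the range of the group. Rat 13 was the highest whole egg library for Acly (0.664), Cyp51 (0.863), Fdps (0.751), miR-204-5p (0.696) and miR-21-5p (0.633), and the lowest for Adhfe1 (0.819), Lox (0.85) and Mgp (0.664). Rat 6 was the highest whole egg library for Slc45a3 (0.712) and the lowest for Cxcl9 (0.666), whose value there was 0. Rat 2 was the lowest whole egg library for Sc5d (0.638). Among CAS rats, rat 23 was the lowest for Clock (0.83) and for Col3a1 (0.643) and the highest for miR-125b-5p (0.631), and rat 15 was the highest for Mgp (0.726).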

How the results depend on the processing

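No paired analysis was possible because whole egg and CAS were fed to different rats, which share no number. The count of 0 genes called in lean adipose tissue was 14 in DESeq2 with its own size factors and 14 with TMM factors, and 0 in every other alternative, each library left out in turn included (0 to 0). The count for the interaction (1 gene) became 0 without rats 6 and 13 and 0 with the strain of the labels, and ranged from 0 to 1 with a library left out. Fasn in that fit ranged from 3.77 to 4.43 with a library left out. The microRNA count stayed at 0, and miR-145-5p turned from a positive to a negative fold change in DESeq2 (-0.077), with RLE factors (-0.079) and without rats 6 and 13 (-0.28), and ranged from -0.22 to 0.19 with a library left out. All 37 mRNA fold changes followed kept their sign in all alternatives. Leaving out rat 13 alone took Reep6 to 2.17, Pgp to 1.31 and Rangap1 to 1.08. Fasn in the interaction was 0.78 with the strain of the labels and 3.89 without rats 6 and 13. Genes at an unadjusted p under 0.05, 669 with all rats, numbered 305 without rats 6 and 13 (101 higher, 204 lower), 326 in limma-voom (120 and 206) and 377 in the 6 rats lean in both sources (285 and 92), and between 373 (without rat 13) and 832 (without CAS rat 23 or whole egg rat 2) with a library left out. Depth limits the low genes: rat 6 had 577769 counts in all and Tcf21 had 1 count in rats 6 and 13.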

Other observations

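Among the 10 libraries other than those of rats 6 and 13, 3 lay together on the second principal component (17.0% of the variance), whole egg rats 17 and 21 at -46.6 and -44.5 and CAS rat 23 at -59.6, with the other 7 between -3.55 and 47.0. They were picked after their values were seen and come from both diets. Retn, the hormone resistin, had 4500, 3634 and 5022 CPM in rats 17, 21 and 23 and 566 to 1793 CPM in the other 7. Ca3 had 6918, 4107 and 4609 CPM in the 3 and 12978 to 41576 CPM in the 7. Dbp, a transcription factor of the circadian clock output, had 346, 230 and 292 CPM in the 3 and 28.6 to 125.3 CPM in the 7. Slc2a4 had 169, 197 and 126 CPM against 14.1 to 67.0 CPM. Tnp1, the spermatid protein, had 103, 22.4 and 69.9 CPM in the 3 and 0.53 to 8.15 CPM in the 7. All 3 are lean in both sources, as are rats 15 and 19 of the 7. Rats 17, 21 and 23 also had the deepest of the 10 libraries, at 3738306, 2279615 and 2435881 counts. The other 7 held 1002582 to 2101701 counts. Whether depth, time of collection or batch set these 3 apart was not tested.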
